A study of Mus musculus with 192 samples.

Results

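A set of 10 genes that store iron, bind metals or remove reactive oxygen was followed in single mouse fibroblasts: the ferritin genes Fth1 and Ftl1, the metallothionein genes Mt1 and Mt2, the haem oxygenase gene Hmox1, and the antioxidant genes Prdx1, Txn1, Gpx1, Sod1 and Sod2. They were 10 of the 11665 RefSeq genes with at least 1 tag by the same rule. A gene's tags were those of the peaks on its strand that began within 2 bp of a start-site window assigned to that gene and lying at most 1000 bp from its annotated RefSeq start. The 10 genes had 248 such windows in the deposited table, of which 218 held tags, from 1577 peaks. The rule itself uses no measured value.

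The cells were mouse embryonic fibroblasts of the C57BL/6 strain, and all of them had received interferon-beta, an antiviral cytokine, at 100 U/ml for 1 h. One group was labelled naïve and the other pretreated. The agent, dose and time of the pretreatment are not given in the sources used here. Each group held 96 single-cell libraries made by single-cell TSS-seq, which maps where polyadenylated transcripts begin, and a peak stands for one such place. No culture, animal or plate was named, so each group counted as 1 sample: differences between the groups have no replicate check, and the group cannot be told apart from anything else that differed between the 2 sets of libraries.

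After libraries under 10% of the median depth were left out, 92 naïve and 85 pretreated cells were kept. Their totals ran from 305066 to 3857034 tags in naïve cells and from 502374 to 13174313 tags in pretreated cells. Of 12 fibroblast markers, 11 had a tag and 8 passed a level of 200, with summed levels of 44059 in naïve and 56102 in pretreated cells, and none of the macrophage, endothelial, epithelial, erythroid or neural markers passed it. No epithelial or erythroid marker had a tag. Of 10 macrophage markers 5 had one, with summed levels of 155 in naïve cells (24 cells) and 291 in pretreated cells (40 cells). Of 6 endothelial markers 2 had one (summed levels 0 and 50.2), and of 6 neural markers 3 (36.3 and 109). The shallowest naïve library (cell 31) held the lowest naïve Prdx1 level, and 1 pretreated library (cell 93) held the lowest pretreated Fth1 level and no Prdx1 peak, so the main results are also given without both. The 2 sets of libraries also stood apart as wholes: peaks held 90.1% of the tags in naïve and 84.6% in pretreated cells. Of the naïve tags in peaks, 0.759% were in peaks on the mitochondrial chromosome, whereas no pretreated cell listed such a peak. The part of this in the differences between the groups was not tested. Levels are tags per 10000000 total tags of the kept cells, computed over a group's summed tags or within 1 cell. Tags are reads without stated molecular identifiers, so the intervals given, which are exact and 95%, cover counting error only. A peak was listed only above a minimum of about 200 on this scale, and a cell that lists no peak of a gene is therefore not shown to lack its RNA.

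As background, free iron feeds the formation of hydroxyl radicals from hydrogen peroxide, and cells keep it locked inside the ferritin shell, which is built from heavy and light chains. Metallothioneins are small cysteine-rich proteins that bind zinc, copper and cadmium, and their genes are switched on by the metal-sensing factor MTF1 through metal response elements. Haem oxygenase 1 breaks haem down to biliverdin, carbon monoxide and iron. Superoxide dismutases turn superoxide into hydrogen peroxide, which peroxiredoxins and glutathione peroxidases then reduce, with thioredoxin returning oxidised peroxiredoxin to its working form. The factor NRF2 acts through antioxidant response elements upstream of several of these genes. In inflammatory settings, fibroblasts are known to raise the mitochondrial dismutase Sod2.

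Promoter sequences are shown for the pair of genes whose levels moved together most closely from cell to cell (Mt2 and Mt1) and for the gene with the greatest difference between the groups among the 10 (Prdx1), with Sod1 beside it because its leading window also lay at the annotated start. They are from RefSeq on GRCm38.p6, plus strand, numbered from the annotated start with -1 as the base before it. The deposited windows are on mm9, so the sequences were not placed against the windows. For Mt2 the stretch is chr8:94172368-94172617 (-250 to -1), and for Mt1 it is chr8:94179059-94179088 (-30 to -1). Capitals mark the metal response element cores TGCACNC or TGCGCNC on either strand.
Mt2: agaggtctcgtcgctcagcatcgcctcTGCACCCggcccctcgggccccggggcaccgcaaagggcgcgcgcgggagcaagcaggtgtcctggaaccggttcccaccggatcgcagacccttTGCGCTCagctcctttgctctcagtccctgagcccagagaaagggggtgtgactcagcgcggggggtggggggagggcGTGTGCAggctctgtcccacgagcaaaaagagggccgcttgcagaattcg
Mt1: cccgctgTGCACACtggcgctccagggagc
For Prdx1 the first stretch is chr4:116685349-116685543 (-250 to -56), with the antioxidant response element core TGACNNNGC, read on the minus strand, in capitals. The second is chr4:116685554-116685583 (-45 to -16), and the Sod1 stretch is chr16:90220709-90220738 (-53 to -24). Capitals in these last sequences mark the TATA box TATAAA.
Prdx1 upstream: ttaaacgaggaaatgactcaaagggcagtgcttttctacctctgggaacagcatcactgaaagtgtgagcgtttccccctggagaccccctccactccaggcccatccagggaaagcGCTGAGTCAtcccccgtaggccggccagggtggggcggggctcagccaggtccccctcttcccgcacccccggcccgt
Prdx1 TATA: cgagaactttgtaggcTATAAAagcagctc
Sod1 TATA: tggtcagactcaggccTATAAAagctccgt

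Of the 10 genes, 9 were in the promoter table, which gives 250 bases before and 50 after each start. Hmox1 was the gene without an entry, so its promoter was not searched. All motifs named here were searched on both strands, apart from the iron-responsive element loop, which was searched on the transcribed strand. Mt2 held the core TGCACNC at -223 to -217 and at -50 to -44, and TGCGCNC at -128 to -122 and at 5 to 11. Mt1 held TGCACNC at -23 to -17 and at 3 to 9, and TGCGCNC at 21 to 27. Among 32851 promoters of the same length, 12.6% held TGCACNC and 15.4% held TGCGCNC. The antioxidant response element core TGACNNNGC was in Mt2 (-79 to -71), Prdx1 (-133 to -125) and Sod1 (-56 to -48), and in 12.4% of all promoters. A TATAAA lay at -29 to -24 in Prdx1 and at -37 to -32 in Sod1, and further ones were in Txn1 (-160 to -155) and Ftl1 (18 to 23). Fth1 held one on the minus strand (-124 to -119) in 1 of its 2 promoter entries and none in the other. Anywhere in the same span, 13.6% of all promoters held one. The interferon-stimulated response element core TTTCNNTTT was in Prdx1 (31 to 39) and in 10.6% of all promoters. The iron-responsive element loop CAGTGN was in Prdx1 (-225 to -220), in Ftl1 (-243 to -238) and in 34.6% of all promoters. The GC box GGGCGG was in every searched gene but Mt2, and in 35.7% of all promoters. These are matches of letters and say nothing of a bound factor. The leading windows of Mt2 and Mt1 were centred 164 and 152 bp inside the RefSeq start. The promoter table ends 50 bases after the start, so the bases just before those window centres were not searched.

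Across the 10 genes, Fth1 and Sod2 were at least 2-fold higher in pretreated cells, Prdx1 was at least 2-fold lower, and the other 7 differed by less. Of the 3762 genes with a level of at least 200 in a group, all 10 members included, 28.7% were at least 2-fold higher in pretreated cells and 11.1% were at least 2-fold lower, which is 39.8% either way. The count of 2 higher and 1 lower of 10 is near that background. Without naïve cell 31 and pretreated cell 93 the same members were called, with log2 ratios of 1.15 for Fth1, 1.02 for Sod2 and -2.78 for Prdx1. The median log2 ratio, pretreated over naïve, was 0.07 over the 10 genes and 0.43 over all 3762. In all, 7 of the 10 lay below the median of all genes. Where levels were scaled by the median of ratios instead, the all-gene median moved to 0.0017 and the shares to 17.1% higher and 16.99% lower, and Fth1 and Sod2 no longer passed 2-fold, at 0.72 and 0.59 on the log2 scale, while Mt1 and Ftl1 passed it downwards, at -1.26 and -1.10. Scaled to the tags of all RefSeq genes, the shares were 23.4% and 13.02%, and Fth1 stood at 0.97 and Sod2 at 0.84.

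**Figure D1:**
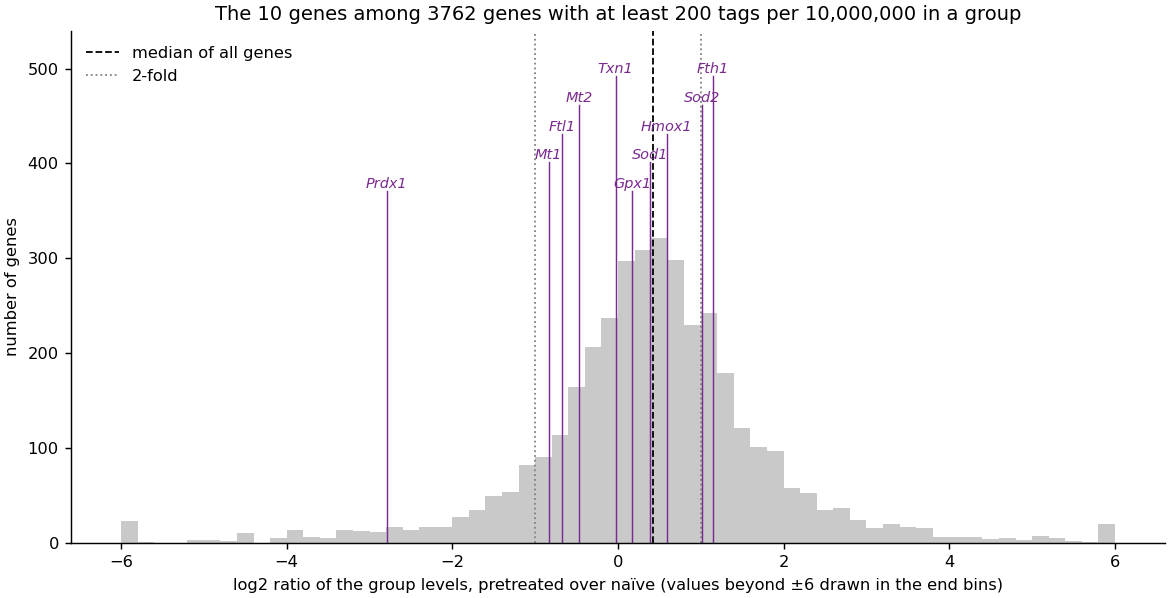
Histogram of the log2 ratio of the group levels, pretreated over naïve (x axis), against the number of genes (y axis), for the 3762 genes with a level of at least 200 tags per 10000000 in a group. Purple lines mark the 10 genes, dotted lines 2-fold either way and the dashed line the all-gene median of 0.43. Prdx1 lies alone at -2.79, and Fth1 (1.14) and Sod2 (1.02) lie just past 2-fold.

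Fth1 encodes the ferritin heavy chain, whose ferroxidase centre oxidises iron for storage. Every kept cell of both groups listed it. The level in naïve cells ran from 1091 through a median of 16683 to 58985, and in pretreated cells from 3242 through 37795 to 111543. The ranges overlapped, with 76 of 85 pretreated cells inside the naïve range, but 82 of 85 pretreated cells were above the naïve median and 2 of 92 naïve cells above the pretreated median. The group levels were 18306 and 40479, a 2.21-fold difference (log2 1.14, interval 1.14 to 1.15). This was 0.72 above the median of all genes on the log2 scale. By group level Fth1 ranked 27 among all genes in naïve and 7 in pretreated cells, where it held 0.405% of all tags.

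Fth1 also had the simplest start of the 10 genes. All of its naïve tags and 99.9% of its pretreated tags fell in the window at chr19:10057120-10057269 on mm9, 58 bp from the RefSeq start and 1 bp from the GENCODE start. The remaining 732 tags came from 1 pretreated cell, whose peak lay in a window 225 bp from the start. Within the leading window the exact position differed: the peak of 75 of 92 naïve cells began at the commonest naïve base, against 31 of 85 pretreated cells, and the peak of 51 pretreated cells but only 11 naïve cells began 2 bp upstream. When peaks had to begin exactly at the window, the log2 ratio was 0.46, since that rule drops the peaks 2 bp upstream. A processed pseudogene, Gm6977, is 95.6% identical to Fth1 over 274 bases and had 3310 naïve and 13413 pretreated tags of its own, so a small part of the Fth1 value is uncertain.

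Ftl1, the ferritin light chain that supports the mineral core, was at a far lower level than Fth1. It was listed in 35 of 92 naïve and 26 of 85 pretreated cells, so that the median cell stood at 0 in both groups, and the highest cells reached 2229 and 2411. Group levels of 362 and 228 gave a log2 ratio of -0.67 (-0.72 to -0.62). Fth1 exceeded Ftl1 by 50.5-fold in naïve and 178-fold in pretreated cells on this scale, which counts 5′ ends and needs no length correction. With the tags of both genes at any distance from the start, these ratios were 9.69-fold and 89.2-fold. Most of the Ftl1 tags added in this way lay in a window that the GENCODE annotation assigns to Gm22133.

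The tags of Ftl1 were scattered, and its values are the least certain of the 10. They fell in 25 windows. The window with the greatest summed share, at chr7:52715005-52715154 in the 5′ untranslated region, held 32.9% of the naïve but 1.79% of the pretreated tags, and the leading pretreated window lay in intron 1 with 18.9%. In the annotation, 5 copies are at least 96.03% identical to Ftl1 over at least 549 bases. One of them, the pseudogene Ftl2-ps, had 6688 tags in 69 naïve cells and 159 tags in 1 pretreated cell. Reads that fit several copies may have been split among them or dropped, and how much of the Ftl1 value this touches was not tested. Limited to windows within 200 bp the log2 ratio was -1.63, and with windows at any distance it was -2.13.

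**Figure D2:**
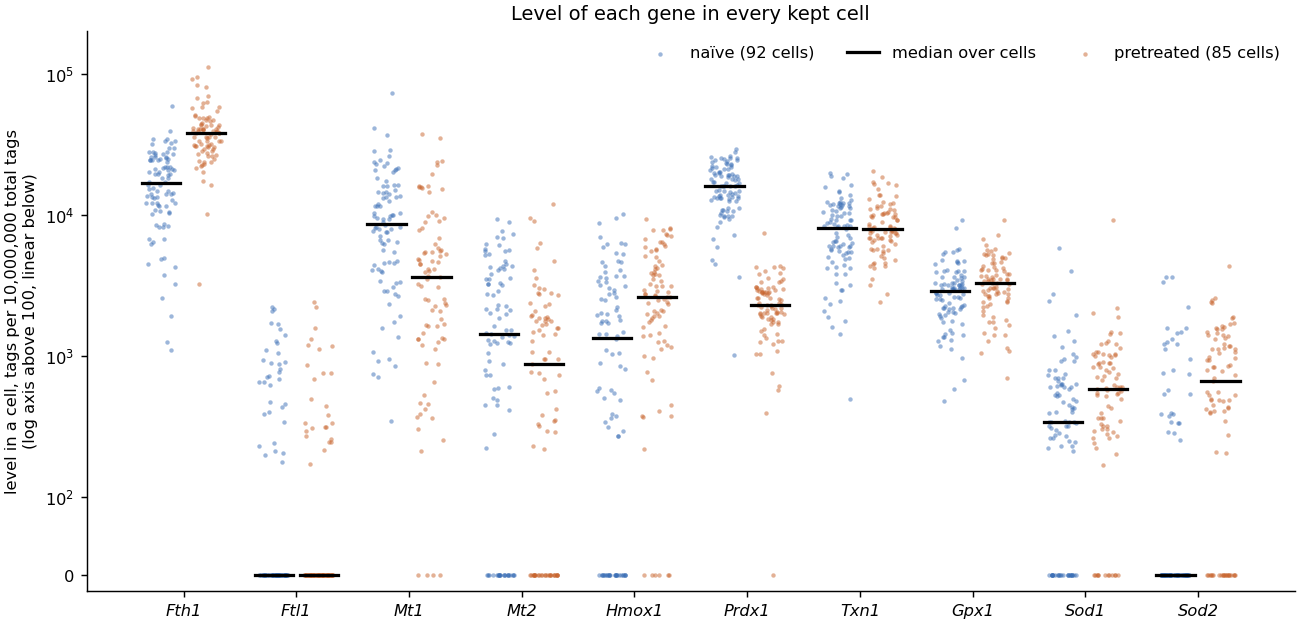
Level of each gene in every kept cell (y axis, tags per 10000000 total tags of the cell, logarithmic above 100 and linear below), with naïve cells in blue, pretreated cells in orange and a black bar at the median over cells. The Fth1 clouds are displaced upwards and the Prdx1 clouds downwards in pretreated cells, whereas those of Txn1 and Gpx1 lie side by side, and Mt1 is widely spread in each group.

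Mt1 and Mt2, the ubiquitous metallothioneins, lie close together on chromosome 8 in the same orientation. Mt1 was listed in all 92 naïve cells, with a range of 345 to 73017 and a median of 8659. It was listed in 81 of 85 pretreated cells, which ran from 0 through a median of 3646 to 37447. The groups overlapped over most of this range, although 72 of 92 naïve cells were above the pretreated median. The group levels were 11571 and 6480, a log2 ratio of -0.84 (-0.85 to -0.83).

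Mt2 was lower than Mt1 in most cells. It was listed in 71 naïve cells, with a median of 1418 and a maximum of 9284 over all kept cells, and in 59 pretreated cells, with a median of 870 and a maximum of 11846. Its group levels of 2278 and 1650 gave a log2 ratio of -0.47 (-0.48 to -0.45). Both differences were under 2-fold, and both log2 ratios were below that of the median gene, with a distance of -1.26 for Mt1 and -0.89 for Mt2. Mt1 exceeded Mt2 in 87 of 92 naïve and 76 of 85 pretreated cells, and the ratio of the group levels was 5.08 and 3.93.

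Mt1 varied more from cell to cell than genes of like level. Its coefficient of variation over cells was 0.938 in naïve and 1.24 in pretreated cells. For genes whose level was within 1.5-fold of that of Mt1, the median coefficient was 0.498 over 66 genes in naïve and 0.526 over 174 genes in pretreated cells. In the pretreated group 1 deep library (cell 62, 10954308 tags) supplied 14.01% of all Mt1 tags and 13.5% of all Mt2 tags. Its levels of 23772 for Mt1 and 5847 for Mt2 were below the highest of 37447 and 11846. These shares therefore also carry its depth. The Mt2 coefficient of 1.43 in the pretreated group stood against a median of 0.829 over 580 genes of like level. In naïve cells Mt2 was close to its like-level genes, at 1.03 against 0.950.

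High Mt1 and high Mt2 occurred in the same cells. Spearman's correlation of the levels was 0.53 over the 92 naïve cells and 0.71 over the 85 pretreated cells, and Pearson's was 0.50 and 0.76. Across the 45 pairs of the 10 genes the median Spearman correlation was 0.11 and 0.06, and the Mt1 and Mt2 pair was the highest of the 45 in each group. Cells of 1 group share a scale and a peak minimum, and the values are descriptive. Neither gene followed depth closely, with correlations with the cell's total tags from 0.06 to 0.19. Among all genes listed in at least 50% of the cells, Mt1 was the one most like Mt2 in both groups, out of 1386 genes in naïve and 2319 in pretreated cells.

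**Figure D3:**
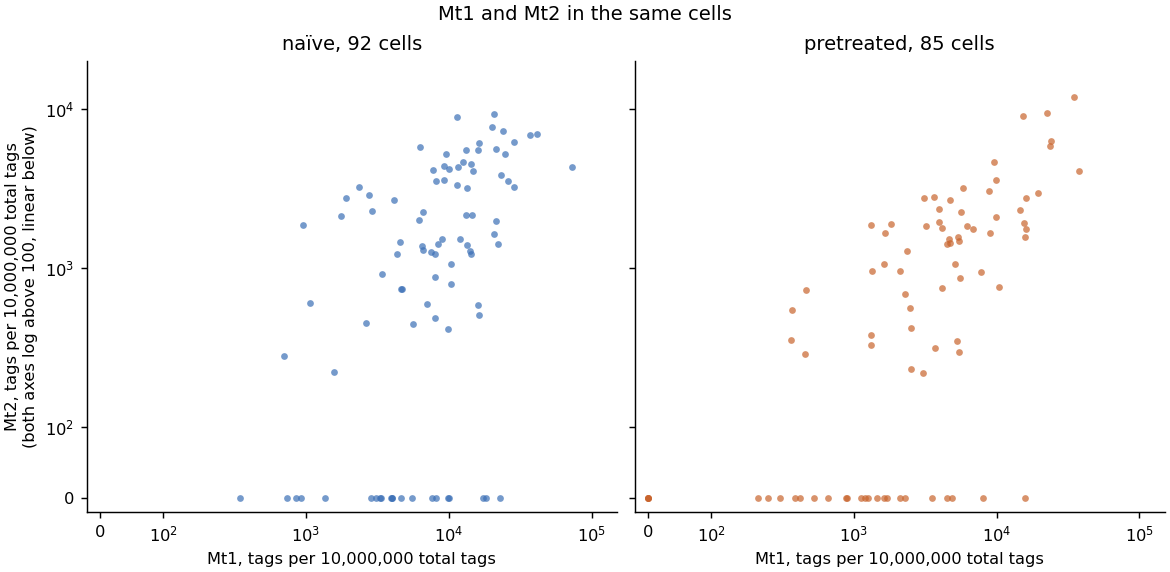
Level of Mt2 (y axis) against Mt1 (x axis) in each cell, in tags per 10000000 total tags, both axes logarithmic above 100 and linear below, for 92 naïve cells (left) and 85 pretreated cells (right). The points rise together in both panels (Spearman 0.53 and 0.71), and the cells on the bottom line list Mt1 but no Mt2 peak, apart from those at the origin, which list neither.

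The leading Mt1 start held in both groups. The window at chr8:96703067-96703216, 152 bp inside the RefSeq start, had 92.01% of naïve and 94.04% of pretreated tags. It lay 30 bp from the nearest GENCODE start, which was not matched to Mt1 by name. Mt2 starts were less uniform. Windows within 50 bp of chr8:96696608-96696757, itself 164 bp inside the annotated start, held 71.4% and 79.9% of the tags. A window 51 bp upstream of it had 15.6% of the naïve but 3.95% of the pretreated tags. The bulk of metallothionein tags in these cells therefore began downstream of the RefSeq starts used in the deposited table.

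Hmox1 was listed in a larger share of pretreated cells, by 20.1 percentage points. This was near the median rise of 18.3 points over all 3762 genes. In naïve cells, 67 of 92 listed it (72.8%, interval 62.6 to 81.6), with a median level of 1347 and a maximum of 10118. Among pretreated cells, 79 of 85 did (92.9%, 85.3 to 97.4), with a median of 2598 and a maximum of 9301. The clouds of points overlapped almost wholly, and 64 of 85 pretreated cells were above the naïve median. The group levels were 2169 and 3265, a log2 ratio of 0.59 (0.57 to 0.61), which is 0.16 above the all-gene median. All tags by the rule began within 50 bp of chr8:77617447-77617596, 4 bp from the annotated start, in both groups.

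Prdx1 had the greatest difference of the 10. It encodes peroxiredoxin 1, an abundant cytosolic peroxidase that reduces hydrogen peroxide and draws its electrons from thioredoxin. The level in naïve cells ran from 1016 through a median of 15956 to 29286, and in pretreated cells from 0 through 2291 to 7440. The groups were nearly separate: 85 of 92 naïve cells were above the highest pretreated cell, and none of the 85 pretreated cells reached the naïve median. At 16199 and 2338, the group level was 6.93-fold lower in pretreated cells (log2 -2.79, interval -2.81 to -2.78). Only 2.84% of the 3762 genes had a lower ratio.

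The Prdx1 difference was not carried by a few cells. Its coefficient of variation was 0.368 in naïve cells and 0.450 in pretreated cells, and only 1.28% of the 467 genes of like level in the pretreated group varied less. Over the 13 alternative treatments of the data the log2 ratio lay between -3.37 and -2.76. The pseudogenes Gm7204 and Gm21399 are 97.5% and 98.3% identical to Prdx1 over 597 bases. Gm7204 had 1066 naïve and 1021 pretreated tags, far fewer than the 329362 and 67050 tags of Prdx1.

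The bases at which Prdx1 peaks began also differed between the groups. All tags lay within 50 bp of the annotated start in both. The window at chr4:116358131-116358280, 1 bp from the start, held 88.3% of naïve tags in 79 cells and 31.01% of pretreated tags in 27 cells. A window 2 bp upstream of it held 68.2% of pretreated tags in 55 cells and no naïve tags. A window 4 bp downstream held 11.7% of naïve tags in 13 cells and no pretreated tags. The tag-weighted focus ratio, HOMER's measure of how closely a peak's tags gather at 1 position, was 0.996 in naïve and 0.933 in pretreated cells, against all-gene medians of 0.912 and 0.828.

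Shifts of a few bases were common in these libraries. Of the 1302 genes listed in at least 50% of the kept cells of both groups, the median start over cells was the same in 33.4%. It was up to 5 bp further upstream in pretreated cells in 23.4% and up to 5 bp further downstream in 11.1%. Fth1 and Prdx1 each moved 2 bp upstream, as did 5.61% of the genes, while Mt2 and Gpx1 moved 1 bp upstream, and Mt1, Hmox1, Txn1 and Sod1 had a median shift of 0. Whether reads were trimmed alike in the 2 sets of libraries is not given in the sources used here, and its part in shifts of this size was not tested.

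**Figure D4:**
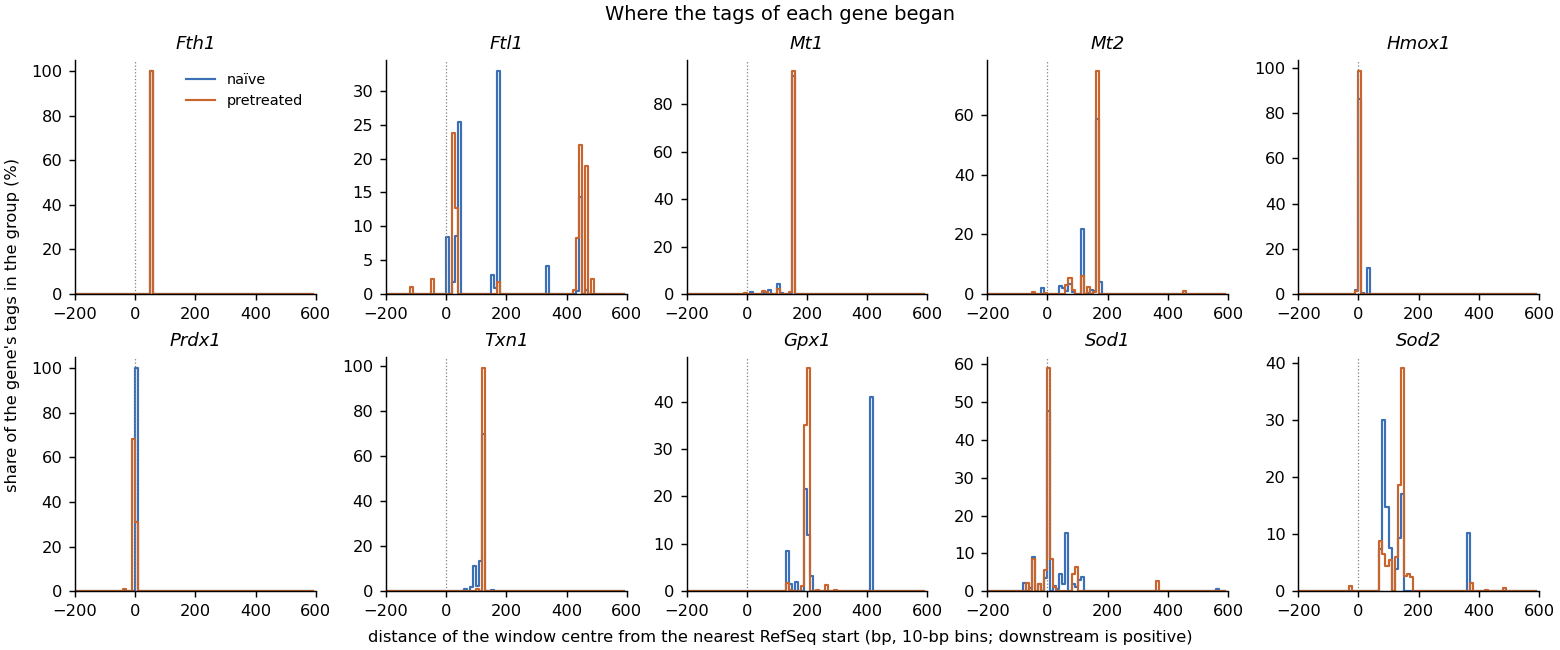
Share of each gene's tags in a group (y axis, percent) by the distance of the window centre from the nearest RefSeq start (x axis, bp, in 10-bp bins, positive downstream), naïve in blue and pretreated in orange, with a dotted line at the start. Fth1, Mt1, Hmox1, Prdx1 and pretreated Txn1 fall in 1 main peak, whereas Ftl1, Mt2, Gpx1, Sod1 and Sod2 are spread over several, and Gpx1 has a naïve peak 410 bp from the start in which no pretreated cell lists a peak.

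Txn1, the cytosolic thioredoxin that keeps Prdx1 reduced, did not follow it. Its levels ran from 492 through a median of 8123 to 19765 in naïve cells and from 2423 through 7897 to 20323 in pretreated cells, so the groups covered the same range. Over the groups the level was 8765 and 8589, a log2 ratio of -0.03 (-0.04 to -0.02). The sign of this ratio changed under 2 alternatives, which gave 0.09 and 0.18. Prdx1 and Txn1 levels were correlated over cells at a Spearman value of 0.22 in naïve and 0.45 in pretreated cells.

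Txn1 starts were tighter in pretreated cells. The window at chr4:57969088-57969237, 121 bp inside the start, held 68.99% of naïve tags in 57 cells and 99.0% of pretreated tags in 84 cells. Windows 10 and 29 bp upstream held 10.8% and 9.42% of naïve tags and none of the pretreated tags. The tag-weighted focus ratio was 0.790 for the naïve group and 0.956 for the pretreated group, while the all-gene median went the other way, from 0.912 to 0.828.

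Gpx1, a selenium-containing glutathione peroxidase, was present in every kept cell. It ran from 478 through a median of 2862 to 9141 in naïve cells and from 693 through 3304 to 9170 in pretreated cells. Over the groups the level was 2982 and 3353, a log2 ratio of 0.17 (0.15 to 0.18), and the sign changed under 3 alternatives. For its level Gpx1 was among the least variable genes, with 1.15% of 349 like-level genes in naïve cells and 3.55% of 366 in pretreated cells having a lower coefficient of variation.

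The leading start of Gpx1 differed between the groups, although the median start over cells moved by only 1 bp. In naïve cells the leading window was chr9:108241747-108241896, 410 bp inside the RefSeq start and within exon 1, with 41.1% of the tags in 35 cells. No pretreated cell listed a peak there. In pretreated cells the leading window was chr9:108241541-108241690 in the 5′ untranslated region, 204 bp inside the RefSeq start but 8 bp from the GENCODE start. It held 47.04% of the pretreated tags in 44 cells, against 11.8% of naïve tags in 13 cells. Windows within 50 bp of this second site held 38.7% of naïve and 83.6% of pretreated tags.

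Sod1, the cytosolic copper and zinc dismutase, was listed in 67 of 92 naïve cells and 73 of 85 pretreated cells. Its median level was 342 in naïve and 577 in pretreated cells, and the highest cells stood at 5846 and 9150. Group levels of 543 and 708 gave a log2 ratio of 0.38 (0.35 to 0.42), and its distance from the all-gene median was -0.05. The pseudogene Gm8566, 97.8% identical to Sod1 over 465 bases, had 4561 naïve and 6492 pretreated tags, counted at any distance by the GENCODE annotation. This is a sizeable number beside the 11034 and 20294 tags of Sod1 within 1000 bp of its RefSeq start, so the Sod1 level is uncertain. The leading window, chr16:90220933-90221082, lay at the annotated start and held 31.6% of naïve and 54.7% of pretreated tags.

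Sod2, the manganese dismutase of mitochondria, had the greatest change in the share of cells. It was listed in 30 of 92 naïve cells (32.6%, interval 23.2 to 43.2) and in 64 of 85 pretreated cells (75.3%, 64.7 to 84.01). The median level was 0 in naïve and 664 in pretreated cells, and the highest cells were at 3639 and 4326. Only 1 pretreated cell was above the highest naïve cell. The group levels were 379 and 767, a log2 ratio of 1.02 (0.98 to 1.05), and 1 naïve cell supplied 14.02% of the naïve tags. The median kept cell had 2305628 tags in the naïve and 2650490 in the pretreated group, and the Spearman correlation of the Sod2 level with the cell's total was 0.03 and -0.16.

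The increase of 42.7 percentage points for Sod2 stood against a median increase of 18.3 points over all 3762 genes. The corresponding differences were 20.1 points for Hmox1 and 13.1 points for Sod1, and the median over the 10 genes was 0, since Fth1, Txn1 and Gpx1 were listed in every kept cell of both groups. Of the other members, Mt1, Mt2, Ftl1 and Prdx1 were listed in a smaller share of pretreated cells, with differences from -7.76 to -1.18 points. The median cell listed 8 of the 10 genes in the naïve group and 9 in the pretreated group.

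**Figure D5:**
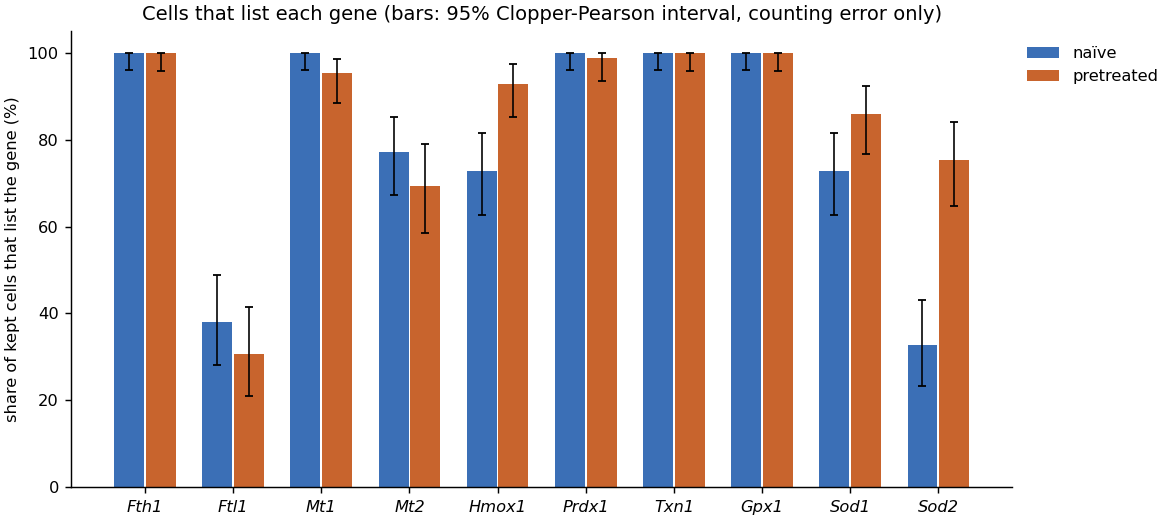
Share of kept cells that list each gene (y axis, percent, from 0), naïve in blue (92 cells) and pretreated in orange (85 cells), with exact 95% Clopper-Pearson intervals that cover counting error only. The intervals are apart for Sod2 (32.6% and 75.3%) and for Hmox1 (72.8% and 92.9%), and overlap for the other genes. The median difference over all 3762 genes was 18.3 percentage points.

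Sod2 starts lay in a broad region. The window at chr17:13200774-13200923, 143 bp inside the start, held the most tags of both groups together, with 16.95% of naïve and 35.3% of pretreated tags. A window 60 bp upstream held 29.9% of naïve tags, all from 3 cells, and no pretreated tags, so that the leading naïve window rests on few cells. Over the 10 genes, the same window led in both groups for 5, namely Fth1, Mt1, Hmox1, Txn1 and Sod1.

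By group level the naïve order was Fth1, Prdx1, Mt1, Txn1, Gpx1, Mt2, Hmox1, Sod1, Sod2 and Ftl1. The pretreated order was Fth1, Txn1, Mt1, Gpx1, Hmox1, Prdx1, Mt2, Sod2, Sod1 and Ftl1. Prdx1 dropped from rank 33 to rank 546 among all genes. In naïve cells Fth1 (median 16683) and Prdx1 (15956) could not be set apart beyond the spread over cells, nor could Gpx1 (2862) from the upper part of the Mt2 and Hmox1 ranges. Together the 10 genes took up 0.636% of the naïve total and 0.679% of the pretreated total.

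Correlations of Fth1 with other members differed between the groups in both directions. Fth1 and Mt2 had a Spearman value of 0.06 in naïve and 0.53 in pretreated cells, Fth1 and Mt1 had 0.34 and 0.51, Fth1 and Prdx1 had 0.12 and 0.42, and Fth1 and Hmox1 had 0.16 and 0.36. Fth1 and Ftl1, the 2 chains of 1 protein shell, gave -0.06 and -0.33, and Fth1 and Gpx1 gave 0.23 and 0.06. These differences between the groups were not tested. The 3 genes most like Fth1 over naïve cells were Itm2b (0.58), Bsg (0.46) and Arpc2 (0.43), and over pretreated cells they were Gstm1 (0.54), Mt2 (0.53) and Rpl4 (0.52). For Hmox1 the closest gene was Cuta (0.35) in naïve and Dctn2 (0.46) in pretreated cells, and for Sod2 it was Copb2 (0.35) and Ugdh (0.44).

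Other genes of the same pathways were called at shares that can be read against the 28.7% of all genes at least 2-fold higher and the 11.1% lower. Of 9 further genes of iron uptake, storage, export and haem breakdown that passed the level of 200, 3 were at least 2-fold higher in pretreated cells and none lower, with a median log2 ratio of 0.65. They were Alas1, the first enzyme of haem synthesis (276 and 705, log2 1.35), the mitochondrial iron importer Slc25a37 (118 and 377, 1.68) and Pcbp2, an RNA-binding protein that also carries iron (68.2 and 372, 2.45). Among 8 metal-responsive and zinc transport genes, the transporters Slc39a7 (1.18) and Slc39a13 (1.83) were higher, none was lower and the median was 0.59. All of these medians stand beside the all-gene value of 0.43. Slc25a37, Pcbp2 and Slc39a13 (59.4 and 212) passed the level of 200 in the pretreated group alone. A gene that enters in this way is favoured towards a higher call, and the 28.7% of all genes was counted with the same filter.

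Among 11 further NRF2 regulators and targets, 4 were at least 2-fold higher and 1 lower, against 28.7% and 11.1% of all genes, with a median log2 ratio of 0.51. The autophagy adaptor Sqstm1 (1.87), the quinone reductase Nqo1 (1.57) and the transporter Abcc1 (1.48) were higher. Nqo1 (levels of 136 in naïve and 403 in pretreated cells) and Abcc1 (98.8 and 275) passed the minimum level in the pretreated group alone. Such entry favours a higher call, and the share of all genes was counted with the same filter. Gstm1, a glutathione transferase, was lower, with levels of 2170 and 581 (log2 -1.90). Among 23 further genes of peroxide and superoxide removal and of the thioredoxin and glutaredoxin systems, 7 were higher and none lower, near the same background, with a median of 0.54. Those of highest level among the 7 were Selenow (1.00), Gsto1 (1.97) and Txnl1 (1.39). For reference, 13 of 18 interferon and NF-kB responsive genes were at least 2-fold higher and none lower, with a median of 2.33, among them Ifitm3 (1.12), B2m (3.19) and Bst2 (5.42).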

How the data were processed

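The deposited file of each cell lists peaks of transcript starts that the authors called with HOMER in that cell alone, per the file headers, on each strand by itself (peak size 150 bp, spacing 300 bp or more, threshold 200, and 2-fold with Poisson p 1e-04 over the local 10000 bp). Bowtie2, HOMER and the mm9 build are named in the submitters' processing notes; read trimming, read filters and duplicate removal are not given in the sources used here. Each peak has a signal, which the authors scaled to 10000000 total tags of the cell, and a focus ratio, which per the file headers is a fraction from 0 to 1. The 553094 windows, with their gene and distance to the start, come from the authors' deposited HOMER annotation.

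Tags were recovered as signal times the cell's total, and all 1082504 peaks gave whole tags within 0.1 or the rounding of the file. Their sum of 426263116 equals the headers' total in peaks. These are reads per peak above a minimum, not a full count table, and with 1 sample a group no count test was run. Of 192 cells, 15 under 10% of the median total were left out (4 naïve and 11 pretreated). No 2 cells shared a total. A cell's or group's level is tags over total tags, and the log2 ratio adds 0.5 tag to each sum; the step was checked on simulated data. Called means at least 2-fold. Intervals are exact Poisson or Clopper-Pearson.

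The 10 genes, the pathway lists and the markers were chosen with earlier results of these data known. All 10 are named, with up to the 3 genes of highest level past 2-fold per list and direction, and the 3 genes most like Fth1, Mt2, Hmox1 and Sod2. Copies share at least 95% identity over 200 bases with a member's transcript (GENCODE vM21, BLAST+ 2.17.0). Tags of copies were counted by the deposited GENCODE annotation at any distance from the start, whereas the members' tags follow the RefSeq rule within 1000 bp. Strands came from GENCODE vM21, or from the RefSeq promoter table for genes not named there. The 0.603% of windows for which no strand was found were left out. A total of 384 unnamed value columns in 2 matrices were not used. Alternatives covered scaling, distance, matching, cell filter, annotation, weighting, single cells and the fold. The scripts ran on Python 3.11.15 with numpy 2.4.6, pandas 2.3.3, scipy 1.17.1 and matplotlib 3.10.9.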

Additional observations from a re-analysis of the deposited data

Results flagged for a closer look

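Ftl1 had more tags outside the region used for its level than inside it. Sense tags assigned to Ftl1 but more than 1000 bp from its annotated start numbered 33365 in 56 naïve cells and 6555 in 46 pretreated cells, against 7365 and 6526 tags within 1000 bp. They drew attention as a signal in data that the comparisons do not use. Most were in the window chr7:52713459-52713608 in the last exon, 1723 bp from the start. It held 23453 tags in 30 naïve cells and 3919 tags in 25 pretreated cells. The deposited GENCODE annotation assigns this window to Gm22133 and not to Ftl1. The part of near-identical copies of Ftl1 in these tags was not tested.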

How the results depend on the processing

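Several counts and medians moved with the processing. The number of members at least 2-fold higher was 2; it became 0 with scaling to the tags of all RefSeq genes, with the median of ratios and with peaks exactly at the window, and 1 with windows at any distance and with cells of at least 50% of the median total. The number lower was 1; it became 2 with gene-tag scaling, within 200 bp and at any distance, and 3 with the median of ratios. At a fold of 1.5, 3 were higher and 3 lower. The members' median log2 ratio of 0.07 became -0.10 with gene-tag scaling, -0.36 with the median of ratios, 0.16 within 200 bp, 0.018 at any distance, -0.054 with exact windows, 0.050 with the deeper cells, 0.19 with the GENCODE table, which names only 7 members, and 0.15 with every cell weighted equally. The median share of tags near the leading window rose from 83.9% to 99.0% in naïve and from 89.8% to 98.2% in pretreated cells when 150 bp replaced 50 bp, as a wider span must hold more. The background of genes higher was 32.99% at a minimum level of 50 and 21.8% at 1000, and of genes lower 13.3% and 12.2%. Fth1 stayed between 0.46 and 1.18, Prdx1 between -3.37 and -2.76 and Sod2 between 0.59 and 1.17 over 13 alternatives. Elsewhere the cause of a change was not tested. With no cell left out for depth, the shares of cells stayed within their intervals. Thinning of cells acted on tags of peaks already called, so it says nothing of depth and its shares are not given. The alternative without naïve cell 31 and pretreated cell 93 was added after the data were seen. No paired analysis was possible because cell numbers only name cells and no result comes from a test. The peak minimum limits what can be said of low genes such as Ftl1 and Sod2 in single cells. It also limits their group levels and ratios, in which a cell with no listed peak counts as 0.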

Other observations

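Hmox1 tags were also listed far from its promoter. The window chr8:77603473-77603622, in intergenic sequence with its centre at -13970 bp from the annotated start and on the strand of the gene, held 11544 tags in 17 naïve cells and 1768 tags in 10 pretreated cells. Hmox1 itself had 44104 and 93644 tags.

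Txn1 had a pair of overlapping windows in exon 2, of which the leading one was chr4:57964677-57964826. It held 2327 tags in 14 pretreated cells and none in naïve cells.

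In only 7 naïve and 8 pretreated cells were all 10 genes listed.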
